A study of Homo sapiens with 8 samples.

Results

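The genes described here are 40 genes listed for the region of the long arm of chromosome 8 labelled 8q24, around MYC. They were listed by name and position and not by a cut on any measured value, but with earlier results of these data known. Of the 40, 39 had a row in the count table, and 35 reached 10 counts when the 8 libraries were added up, the minimum for a test. These 35 members are part of 18203 genes tested and of 37441 genes in the table. In GENCODE v44 on GRCh38 they run from TRMT12, which starts at position 124450820 of chromosome 8, to GRINA, which ends at position 143993415.

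RNA was sequenced from NCI-H1581 and NCI-H1703, established lines of lung cancer cells (non-small cell type) sensitive to inhibition of fibroblast growth factor receptors (FGFR), and from NCI-H1581R and NCI-H1703R, their variants resistant to the FGFR inhibitor CPL304110. The resistant variants had been kept in rising concentrations of CPL304110, from 50 nM to a final 2.5 µM for NCI-H1581R and 5 µM for NCI-H1703R, over 4 to 6 months. Each of the 4 variants has 2 replicates, made by repeating the seeding and the harvest, which followed 24 h after a change to fresh medium. Each resistant variant is 1 selected culture of its line, so the replicates measure the spread between harvests and not between independent selections. The sources used here do not say whether the resistant variants are clones, or whether the inhibitor was present in the last medium. NCI-H1581 was grown in DMEM/F12 and NCI-H1703 in RPMI 1640, so line and medium cannot be told apart in comparisons between the lines.

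MYC encodes a transcription factor that pairs with MAX, binds E-box sequences and drives genes of ribosome production, nucleotide synthesis and the cell cycle. The band 8q24 is often present in extra copies in cancers, and such a gain usually spans neighbours of MYC too. The neighbours have unrelated functions, among them focal adhesion signalling (PTK2), microRNA-guided silencing (AGO2), splicing (PUF60) and cytoskeletal linkage (PLEC), so RNA along the band is read by position as well as by function. DNA copy number was not analysed here.

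The libraries held 33800389 to 40031710 counts, and 3 counts, taken as the smallest amount told from 0, correspond to 0.0749 to 0.0897 CPM, the count of a gene relative to the size of its library, scaled with TMM factors over all 8 libraries. Among marker genes of cell types, VIM, the mesenchymal filament protein, stood between 2634 and 6711 CPM, while the other mesenchymal markers varied between variants, FN1 from 0.623 to 919 CPM, CDH2 from 1.01 to 50.2 CPM and ZEB1 from 1.66 to 33.6 CPM. The 5 epithelial markers summed to 6.76 to 75.6 CPM. The leukocyte markers summed to 5.59 to 6.06 CPM in NCI-H1581R, almost all of it LCP1, against 0.237 to 0.275 CPM in NCI-H1581 and at most 0.212 CPM in both NCI-H1703 variants. CD3E was at 0 in all libraries and PTPRC, the pan-leukocyte surface marker, reached 0.399 CPM. The 3 endothelial markers summed to at most 0.449 CPM. The part of these marker differences in the results below was not tested.

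In both resistant variants more members of the 8q24 list were called lower than higher, and 10 of the 14 called lower in NCI-H1581R and 5 of the 9 in NCI-H1703R lie at the distal end of the band, as do 15 of the 35 tested members. In NCI-H1581R, 14 of the 35 members (40%) were called lower, at an edgeR quasi-likelihood p under 0.1 after Benjamini-Hochberg adjustment over all genes tested (called "edgeR adjusted p" from here on). Over all 18203 genes, 7.44% were called lower in that comparison. KHDRBS3 alone (2.86% of the members, against 7.63% of all genes) was called higher. The median log2 fold change of the members was −0.55, against 0.0397 over all genes tested, and 28 members had a negative value. The replicate number as a block, which takes out what same-numbered libraries share, gave 15 members lower and 2 higher (8.88% and 9.21% of all genes). DESeq2 also gave 15 and 2 (9.17% and 8.53%). An edgeR fit of 4 libraries has 1 residual degree of freedom with the replicate block, against 2 without it.

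In NCI-H1703R, 9 members (25.7%) were called lower, against 7.67% of all genes, and 0 were called higher, against 7.06%. DESeq2 called 13 lower and 0 higher there (8.83% and 7.85% of all genes), and EFR3A and MAFA were the 2 higher members with an unadjusted p under 0.05 in edgeR. The median log2 fold change of the members was −0.36, against 0.00 over all genes, and 27 members had a negative value. With the replicate block the counts for NCI-H1703R were 19 lower and 3 higher, where 16.7% of all genes were called lower and 18.2% higher.

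**Figure D1:**
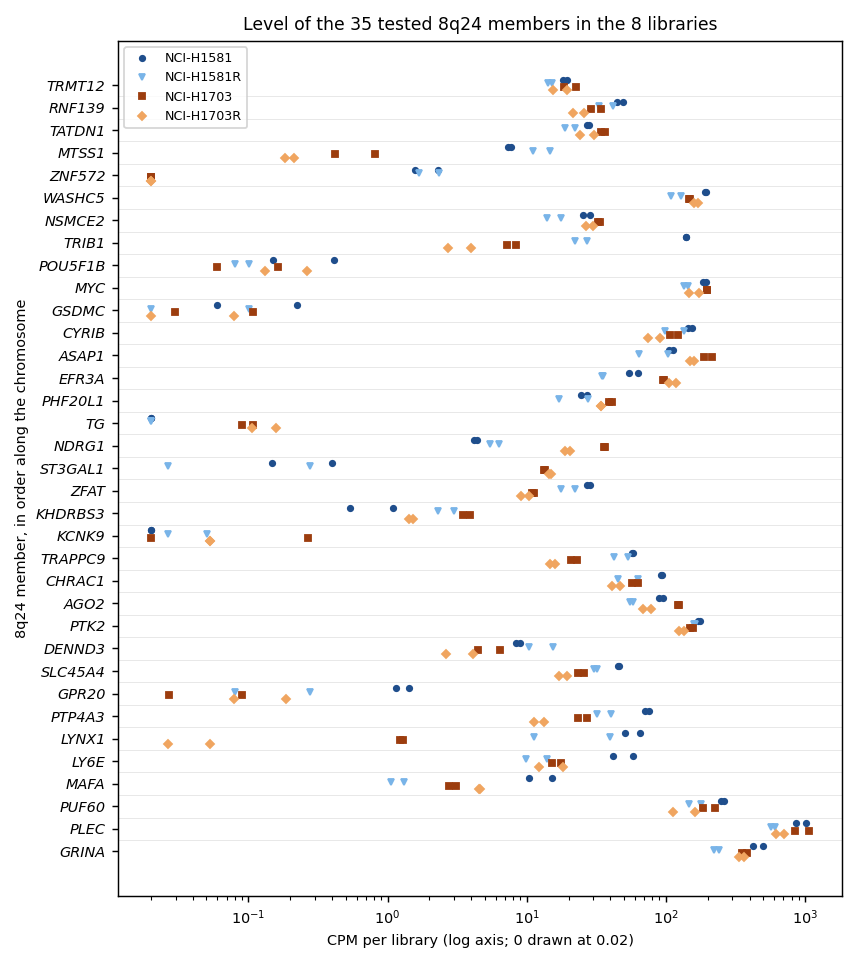
CPM (log axis, values of 0 drawn at 0.02) of the 35 tested members, in order along the chromosome from TRMT12 to GRINA, with 1 point per library and 2 libraries for each of NCI-H1581, NCI-H1581R, NCI-H1703 and NCI-H1703R. Both resistant libraries are lower than both parental libraries for 25 members in NCI-H1581R and for 22 in NCI-H1703R.

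Replicates were also compared by whether the groups overlap. Both NCI-H1581R libraries lay below both NCI-H1581 libraries for 25 members (71.4%), against 23.9% of all genes, and above them for 5, against 26.7% of all genes. In NCI-H1703R both libraries lay below both NCI-H1703 libraries for 22 members (62.9%), against 27.5% of all genes, and above them for 4, against 23.8%. Of the 28 members with a mean of at least 5 CPM over the 4 variants, 21 (75.0%) had a negative log2 fold change in both lines, as did 22.2% of the 11174 genes of that abundance.

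Which members were called depended on having both parental libraries. Without NCI-H1581 replicate 1, or without NCI-H1581 replicate 2, TRIB1, LY6E and MAFA were the 3 members called lower, and 0 were called higher. Without either NCI-H1581R library in turn, 19 were called lower. Without either NCI-H1703 library in turn, LYNX1 was the 1 member called lower in NCI-H1703R, and without NCI-H1703R replicate 1 there were 4. A single fit of all 8 libraries left 5, since ASAP1 (edgeR adjusted p = 0.371), TRAPPC9 (0.107), CHRAC1 (0.205) and LYNX1 (0.190) no longer passed. In the fits with a library left out 1 residual degree of freedom is left and the lone library is assumed to vary like the others. The share of all genes called in these fits, or in the single fit, is not given here. The counts thus do not tell a change in the members from a change in calling over all genes. The median of the members stayed negative in all of these fits, between −0.59 and −0.40 in the first line and between −0.39 and −0.24 in the second.

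MYC (chr8:127735434-127742951, plus strand) was abundant in all 4 variants. It stood at 185 and 194 CPM in the NCI-H1581 libraries and at 144 and 135 CPM in NCI-H1581R. The NCI-H1703 libraries stood at 197 and 199 CPM and the NCI-H1703R libraries at 148 and 174 CPM. Both resistant variants thus lay below their parental lines without overlap, but neither difference passed the test. The log2 fold change was −0.43 ± 0.16 (SE, edgeR adjusted p = 0.155) in NCI-H1581R and −0.27 ± 0.10 (edgeR adjusted p = 0.191) in NCI-H1703R. DESeq2 called both, with adjusted p of 0.0462 and 0.0978. The NCI-H1581R difference was also called in a single fit of all 8 libraries (edgeR adjusted p = 0.0404), with offsets for GC content and length (0.0619, or 0.0557 with the replicate block) and without NCI-H1581R replicate 1 (0.0371) or replicate 2 (0.0801), and not with the block alone (0.164) or without either NCI-H1581 library (0.536 and 0.621). The NCI-H1703R difference was called with the block (edgeR adjusted p = 0.0129, or 0.0379 with the offsets) and without NCI-H1703R replicate 2 (0.0993). The change of MYC differed between the lines by 0.14 ± 0.17 (edgeR adjusted p = 0.718). MYC shares exon sequence with the antisense RNA CASC11, and the sources used here do not say whether reads were counted by strand.

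PTK2, ADCY8 and MAFA are further 8q24 genes that the study examined for copy number. PTK2 (chr8:140657900-141002216), the gene of focal adhesion kinase, had the smallest log2 fold change in NCI-H1581R among the 28 members with a mean of at least 5 CPM. Its values were 171 and 176 CPM in NCI-H1581, 158 and 161 CPM in NCI-H1581R, 150.0 and 157 CPM in NCI-H1703, and 124 and 136 CPM in NCI-H1703R. The resistant libraries were lower without overlap in both lines, by a log2 fold change of −0.11 ± 0.16 (edgeR adjusted p = 0.723) and −0.21 ± 0.09 (edgeR adjusted p = 0.243, or 0.0304 with the replicate block). ADCY8, an adenylyl cyclase gene and not one of the 40, had 0 counts in all 8 libraries, so its RNA was not detectable at this depth.

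MAFA (chr8:143419182-143430732), a leucine zipper transcription factor best known from insulin-producing cells, went in opposite directions in the 2 lines. It stood at 15.1 and 10.5 CPM in NCI-H1581 and at 1.06 and 1.32 CPM in NCI-H1581R, a fall of the largest size among the called members of that line. The log2 fold change was −3.40 ± 0.35 (edgeR adjusted p = 0.00181). Levels in NCI-H1703 were 2.78 and 3.11 CPM and those in NCI-H1703R 4.55 and 4.65 CPM, without overlap, with a log2 fold change of 0.68 ± 0.23 (edgeR adjusted p = 0.143, or 0.0508 with the replicate block). The difference between the lines was 4.05 ± 0.42 (edgeR adjusted p = 0.000634).

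**Figure D2:**
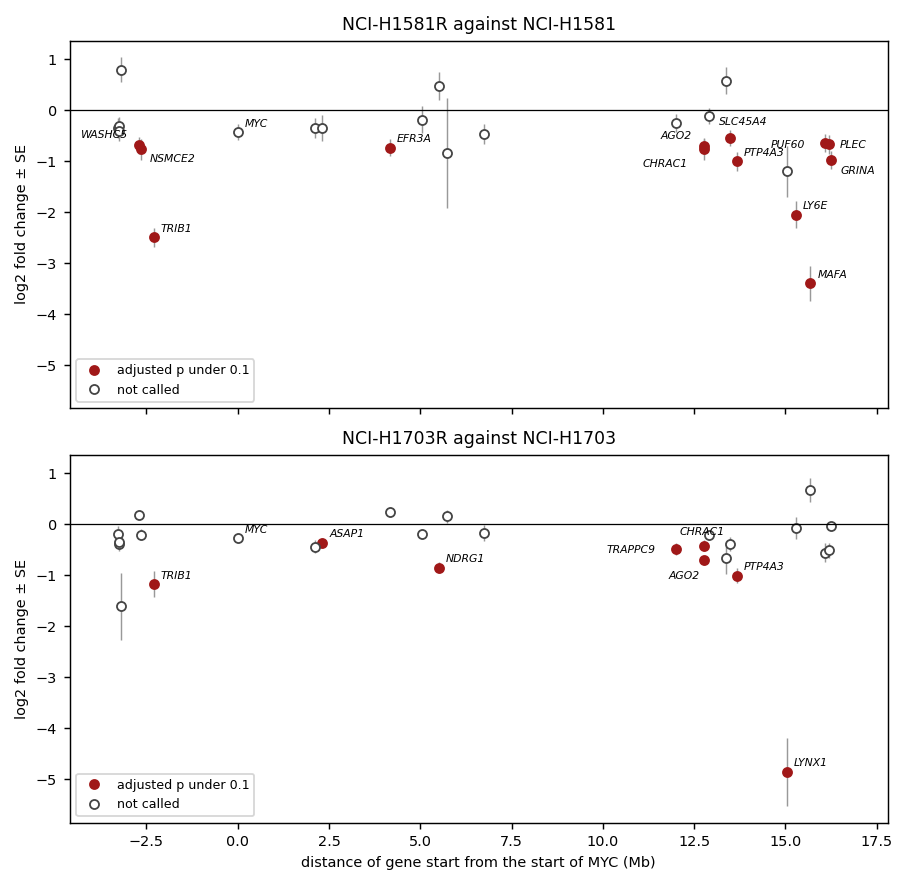
Log2 fold change ± SE of the 28 members with a mean of at least 5 CPM (y axis) against the distance of the gene start from the start of MYC in Mb (x axis), for NCI-H1581R against NCI-H1581 (top) and NCI-H1703R against NCI-H1703 (bottom), with filled points for members called at an edgeR adjusted p under 0.1. Most filled points lie at the distal end in both panels, and MYC is below 0 and not called in either (KHDRBS3 and GPR20 are too low to be shown).

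By position the members form a proximal group from −3.28 to −2.30 Mb, a group around MYC from −0.413 to 2.71 Mb, a middle group from 4.17 to 7.92 Mb and a distal group from 11.9 to 16.3 Mb, counted from the start of MYC with negative values towards the centromere. In the distal group 10 of 15 members were called lower in NCI-H1581R (66.7%, median −0.70) and 5 in NCI-H1703R (33.3%, median −0.48). In neither line was a distal member called higher. Over all genes 7.44% and 7.67% were called lower, and 7.63% and 7.06% higher. In the proximal group 3 of 8 and 1 of 8 were called lower (medians −0.38 and −0.27). In the group of MYC the counts were 0 of 5 and 1 of 5 (medians −0.43 and −0.36). GSDMC and POU5F1B of that group were close to the floor, with 23 and 50 counts in all. MYC, CYRIB and ASAP1 were lower without overlap in both resistant variants. In the middle group the counts were 1 of 7 and 2 of 7 (medians −0.19 and −0.17).

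In the proximal group TRIB1 fell in both lines. TRIB1 (chr8:125430358-125438403) encodes a pseudokinase that brings the factor C/EBPα to a ubiquitin ligase. It stood at 140.5 and 140.3 CPM in NCI-H1581 and at 27.2 and 22.3 CPM in NCI-H1581R. In NCI-H1703 it stood at 7.16 and 8.34 CPM and in NCI-H1703R at 2.72 and 4.01 CPM. The groups did not overlap in either line, and the parental lines themselves lay far apart. The log2 fold change was −2.50 ± 0.18 (edgeR adjusted p = 0.000401) in NCI-H1581R and −1.17 ± 0.25 (edgeR adjusted p = 0.0448) in NCI-H1703R. The second call was lost without either NCI-H1703 library or without NCI-H1703R replicate 1, with log2 fold changes of −1.30, −1.04 and −0.91.

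WASHC5 and NSMCE2 passed the test in NCI-H1581R, and the difference between the lines was called for WASHC5 and not for NSMCE2 (edgeR adjusted p = 0.182). WASHC5, a subunit of the WASH complex that builds actin on endosomes, stood at 193 and 190.2 CPM in NCI-H1581 and at 128 and 108 CPM in NCI-H1581R, a log2 fold change of −0.69 ± 0.17 (edgeR adjusted p = 0.0512). It stood at 146 and 149 CPM in NCI-H1703 and at 159 and 171 CPM in NCI-H1703R, a log2 fold change of 0.19 ± 0.09 (edgeR adjusted p = 0.242, or 0.0385 with the replicate block). NSMCE2, a SUMO ligase of the SMC5/6 genome maintenance complex, stood at 25.2 and 28.6 CPM in NCI-H1581 and at 17.5 and 13.9 CPM in NCI-H1581R (log2 fold change −0.77 ± 0.21, edgeR adjusted p = 0.0707). In the other line it stood at 33.9 and 32.7 CPM before and at 26.6 and 30.2 CPM after selection, with a log2 fold change of −0.20 ± 0.11 (edgeR adjusted p = 0.325). The 2 genes share 141 bases of exon on opposite strands.

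The remaining proximal members did not pass the test in either line. TRMT12, RNF139 and TATDN1, which encode a tRNA-modifying enzyme, a ubiquitin ligase of the endoplasmic reticulum and a putative nuclease, had log2 fold changes between −0.41 and −0.20 in both lines. With the replicate block RNF139 (edgeR adjusted p = 0.0106) and TATDN1 (edgeR adjusted p = 0.0166) were called lower in NCI-H1703R. MTSS1, a scaffold that bends membranes and binds actin, stood at 7.72 and 7.37 CPM in NCI-H1581 and at 11.2 and 14.7 CPM in NCI-H1581R (log2 fold change 0.79 ± 0.24, edgeR adjusted p = 0.102, or 0.0895 with the replicate block). In NCI-H1703 and NCI-H1703R it held 44 and 15 counts, a ratio of 3.15 (95% exact interval 1.72 to 6.10, counting error only), with an edgeR adjusted p of 0.211, or 0.0944 with the replicate block, which called it lower. MTSS1 shares 2001 bases of exon with the opposite-strand gene NDUFB9. ZNF572, a zinc finger gene, had 146 counts in NCI-H1581 and 155 in NCI-H1581R and 0 in all 4 libraries of the other line.

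Around MYC, ASAP1 was the 1 member called. ASAP1, a GTPase-activating protein for ARF that acts on the actin cytoskeleton, stood at 215 and 188 CPM in NCI-H1703 and at 159 and 149 CPM in NCI-H1703R, a log2 fold change of −0.36 ± 0.10 (edgeR adjusted p = 0.0920). That call was lost with any 1 of the 4 libraries left out, with values between −0.43 and −0.28. The call was also lost without a low-count filter (edgeR adjusted p = 0.133). In NCI-H1581 ASAP1 stood at 106 and 112 CPM, and the NCI-H1581R libraries at 64.6 and 104 CPM lay apart from each other (log2 fold change −0.35 ± 0.25, edgeR adjusted p = 0.457). CYRIB, which binds RAC1 and restrains actin assembly, had log2 fold changes of −0.35 ± 0.20 and −0.44 ± 0.13, with edgeR adjusted p of 0.357 and 0.108. With the replicate block CYRIB was called in NCI-H1703R. PVT1, the long non-coding RNA gene beside MYC, was not analysed here.

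In the middle group KHDRBS3 was called in opposite directions in the 2 lines. KHDRBS3, an RNA-binding splicing regulator, stood at 0.534 and 1.10 CPM in NCI-H1581 and at 3.0 and 2.31 CPM in NCI-H1581R, and rose by a log2 fold change of 1.67 ± 0.48 (edgeR adjusted p = 0.0864). The NCI-H1703 libraries stood at 3.46 and 3.89 CPM and the NCI-H1703R libraries at 1.43 and 1.53 CPM, a fall of −1.28 ± 0.29 on the log2 scale (edgeR adjusted p = 0.0507). That fall was lost with any 1 of the 4 libraries left out, with values between −1.38 and −1.17. The rise was lost without either NCI-H1581 library (log2 fold changes of 1.26 and 2.31), without NCI-H1581R replicate 1 (1.47), and with offsets for GC content and length (edgeR adjusted p = 0.124).

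NDRG1, a stress-responsive gene named for its repression by N-MYC, fell in NCI-H1703R. It stood at 35.9 and 36.5 CPM in NCI-H1703 and at 18.8 and 20.6 CPM in NCI-H1703R (log2 fold change −0.85 ± 0.11, edgeR adjusted p = 0.00946). In the other line it stood at 4.15 and 4.37 CPM before and at 5.42 and 6.33 CPM after selection (log2 fold change 0.47 ± 0.27, edgeR adjusted p = 0.361). NDRG1 shares 753 bases of exon with a non-coding RNA on the same strand.

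EFR3A, which anchors a phosphatidylinositol kinase at the plasma membrane, stood at 54.6 and 63.1 CPM in NCI-H1581 and at 35.5 and 34.8 CPM in NCI-H1581R, a log2 fold change of −0.74 ± 0.17 (edgeR adjusted p = 0.0463). Levels in NCI-H1703 were 95.4 and 97.0 CPM and those in NCI-H1703R 106 and 118 CPM, higher without overlap (log2 fold change 0.25 ± 0.09, edgeR adjusted p = 0.170, or 0.0175 with the replicate block). PHF20L1, ST3GAL1 and ZFAT were called in neither line. ST3GAL1, a sialyltransferase gene, was nearly absent from NCI-H1581 and NCI-H1581R, at no more than 0.399 CPM, and stood between 13.4 and 15.1 CPM in the 4 libraries of the other line. TG, the thyroglobulin gene, had 17 counts in all.

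In the distal group AGO2, CHRAC1 and PTP4A3 fell in both lines. AGO2 (chr8:140520156-140635633), the Argonaute that cuts RNA paired with a small RNA, stood at 89.2 and 95.9 CPM in NCI-H1581 and at 58.2 and 55.0 CPM in NCI-H1581R. In NCI-H1703 it stood at 121 and 124 CPM and in NCI-H1703R at 69.0 and 78.3 CPM. The log2 fold changes of −0.70 ± 0.16 (edgeR adjusted p = 0.0417) and −0.71 ± 0.10 (edgeR adjusted p = 0.0129) differed by −0.03 ± 0.17 between the lines. The values stayed between −0.80 and −0.61 with any 1 library left out, but the calls of AGO2, CHRAC1 and PTP4A3 were lost without either parental library.

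PTP4A3 (chr8:141391995-141432454), a phosphatase gene also known as PRL-3, changed by nearly the same amount in both lines. It stood at 76.0 and 70.3 CPM in NCI-H1581 and at 40.5 and 31.9 CPM in NCI-H1581R (log2 fold change −1.01 ± 0.18, edgeR adjusted p = 0.0181). The NCI-H1703 libraries stood at 27.0 and 23.2 CPM and the NCI-H1703R libraries at 13.3 and 11.3 CPM (log2 fold change −1.0 ± 0.15, edgeR adjusted p = 0.0152). CHRAC1 (chr8:140511311-140517154), a small histone-fold subunit of a chromatin remodelling complex, stood at 93.6 and 92.6 CPM in NCI-H1581 and at 63.4 and 45.0 CPM in NCI-H1581R (log2 fold change −0.77 ± 0.20, edgeR adjusted p = 0.0659). In the other line it stood at 57.0 and 62.7 CPM before and at 41.2 and 46.6 CPM after selection (log2 fold change −0.42 ± 0.11, edgeR adjusted p = 0.0809), a call that 3 of the 4 left-out fits lost, with values of −0.51 to −0.32 over all 4. With TRIB1 these are 4 members (11.4%) called lower in both lines, against 0.95% of all genes, and 0 members were called higher in both, against 0.692%.

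TRAPPC9, SLC45A4 and GPR20 passed in 1 line each, and the difference between the lines was called for none of them. TRAPPC9, a subunit of a vesicle tethering complex, stood at 23 and 20.7 CPM in NCI-H1703 and at 16.0 and 14.6 CPM in NCI-H1703R (log2 fold change −0.48 ± 0.12, edgeR adjusted p = 0.0743). It stood at 57.8 and 57.1 CPM in NCI-H1581 and at 53.2 and 42.5 CPM in NCI-H1581R (log2 fold change −0.25 ± 0.18, edgeR adjusted p = 0.454). Its call in NCI-H1703R was lost with any 1 of the 4 libraries left out, with values between −0.54 and −0.42. SLC45A4, a membrane transporter gene, stood at 45.5 and 46.0 CPM in NCI-H1581 and at 30.3 and 31.9 CPM in NCI-H1581R (log2 fold change −0.55 ± 0.16, edgeR adjusted p = 0.0951).

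For SLC45A4 the NCI-H1703 values of 23.3 and 25.8 CPM and the NCI-H1703R values of 17.2 and 19.6 CPM did not overlap either, and passed with the replicate block (edgeR adjusted p = 0.141, or 0.0155 with the block). GPR20, an orphan receptor gene, stood at 1.42 and 1.15 CPM in NCI-H1581 and at 0.0797 and 0.279 CPM in NCI-H1581R. These were 94 and 14 counts, a ratio of 7.01 (95% exact interval 3.98 to 13.3, counting error only), and the edgeR adjusted p was 0.0549. Its level in the other line was at most 0.185 CPM. The call of GPR20 in NCI-H1581R was lost in 3 of the 4 left-out fits, with log2 fold changes of −3.95 to −2.16 over all 4. DENND3, an activator of a RAB GTPase, had values of 0.58 ± 0.27 and −0.65 ± 0.31 on the log2 scale and was called in neither line (edgeR adjusted p = 0.253 and 0.271), but was called lower in NCI-H1703R with the replicate block (edgeR adjusted p = 0.0461).

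LYNX1, LY6E and LY6K, which was below the minimum for a test, belong to 1 family of small surface proteins. LYNX1 (chr8:142771197-142777810), which modulates nicotinic acetylcholine receptors, stood at 1.30 and 1.23 CPM in NCI-H1703 and at 0.0529 and 0.0264 CPM in NCI-H1703R. These were 89 and 3 counts, a ratio of 31.9 (95% exact interval 10.6 to 158, counting error only), with an edgeR adjusted p of 0.00642. In NCI-H1581 it was far more abundant, at 51.2 and 65.7 CPM, and the NCI-H1581R libraries differed from each other at 39.4 and 11.3 CPM (log2 fold change −1.20 ± 0.51, edgeR adjusted p = 0.210, or −1.40 and 0.0992 with the replicate block, which called it lower). LYNX1 shares 393 bases of exon with the readthrough gene LYNX1-SLURP2 on the same strand, so how its reads were divided is uncertain.

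LY6E (chr8:143017982-143023832), an interferon-induced member of the family, stood at 41.5 and 57.6 CPM in NCI-H1581 and at 14 and 9.86 CPM in NCI-H1581R. It fell there by 2.05 ± 0.27 on the log2 scale (edgeR adjusted p = 0.00484), with any 1 library left out as well. Levels in NCI-H1703 were 15.2 and 17.7 CPM and those in NCI-H1703R 12.2 and 18.3 CPM, which overlapped (log2 fold change −0.08 ± 0.21, edgeR adjusted p = 0.894).

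At the distal edge PUF60, PLEC and GRINA had the highest levels in the distal group in all 4 variants, per kilobase of all annotated exons merged. GRINA, a membrane protein gene linked to calcium handling and cell survival, stood at 495 and 421 CPM in NCI-H1581 and at 242 and 220.5 CPM in NCI-H1581R (log2 fold change −0.98 ± 0.17, edgeR adjusted p = 0.0173). In NCI-H1703 it stood at 384 and 350.3 CPM and in NCI-H1703R at 338 and 362 CPM, which overlapped (log2 fold change −0.04 ± 0.09, edgeR adjusted p = 0.873). GRINA shares 324 bases of exon with PARP10 on the opposite strand.

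PUF60, a splicing factor of which 1 form also represses transcription of MYC, stood at 262 and 251 CPM in NCI-H1581 and at 178 and 147 CPM in NCI-H1581R (log2 fold change −0.65 ± 0.17, edgeR adjusted p = 0.0683). The NCI-H1703 libraries stood at 224 and 186 CPM and the NCI-H1703R libraries at 113 and 161 CPM (log2 fold change −0.55 ± 0.18, edgeR adjusted p = 0.130, or 0.0116 with the replicate block). PLEC, the gene of the cytoskeletal linker plectin, stood at 1017 and 868 CPM in NCI-H1581 and at 607 and 565 CPM in NCI-H1581R (log2 fold change −0.67 ± 0.19, edgeR adjusted p = 0.0774). In the other line it stood at 1077 and 851 CPM before and at 711 and 614 CPM after selection (log2 fold change −0.51 ± 0.15, edgeR adjusted p = 0.102, or 0.000257 with the block). With offsets for GC content and length the NCI-H1581R calls of PUF60 (log2 fold change −0.42, edgeR adjusted p = 0.194), PLEC (−0.44, 0.285) and SLC45A4 (−0.50, 0.101) were lost.

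The 2 lines differed in how some members changed, tested as an interaction over all 8 libraries. The difference was called higher for 6 members (17.1%, against 6.93% of all genes) and lower for 3 (8.57%, against 8.47%). For WASHC5, TRIB1, EFR3A, LY6E, MAFA and GRINA the log2 fold change was lower in NCI-H1581R than in NCI-H1703R, and for MTSS1, NDRG1 and KHDRBS3 it was higher. The call for MTSS1 (edgeR adjusted p = 0.0796) was lost with the replicate block (0.109), and with any library left out other than NCI-H1581R replicate 1, with values between −2.76 and −1.84. The call for TRIB1 was lost without NCI-H1703 replicate 1 (1.20) or without NCI-H1703R replicate 2 (0.999). The other 7 kept their call with each library left out in turn. Across the 28 members with a mean of at least 5 CPM, Pearson's r between the log2 fold changes of the lines was −0.09, a description over neighbouring genes that are not independent.

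**Figure D3:**
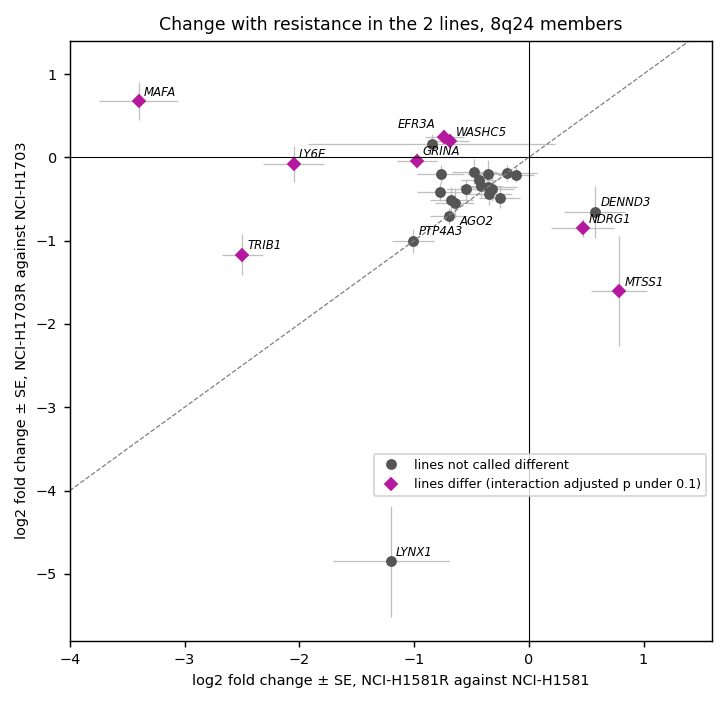
Log2 fold change ± SE of 28 members with a mean of at least 5 CPM in NCI-H1581R against NCI-H1581 (x axis) and in NCI-H1703R against NCI-H1703 (y axis), with diamonds where the lines were called different and a dashed line of equality. AGO2 and PTP4A3 lie on the line of equality, and MAFA, LY6E and TRIB1 lie furthest to the left, above it.

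Genes between the members were also called lower more often than genes in general. In the interval from TRMT12 to GRINA, 39 further genes were tested, of which 12 (30.8%) were called lower in NCI-H1581R and 11 (28.2%) in NCI-H1703R, and 0 were called higher in either line. In the distal group, 10 and 9 of the 32 such genes were called lower, against 7.44% and 7.67% of all genes. ARC, an activity-induced gene of neurons, stood at 41.3 and 27.3 CPM in NCI-H1581 and at 2.55 and 2.49 CPM in NCI-H1581R (edgeR adjusted p = 0.000546). It was also called lower in the other line, at 5.46 and 5.95 CPM in NCI-H1703 and 3.12 and 3.17 CPM in NCI-H1703R (edgeR adjusted p = 0.0758). Between the proximal members, SQLE, an enzyme of cholesterol synthesis, fell in both lines, by 0.63 ± 0.16 (edgeR adjusted p = 0.0627) and 0.61 ± 0.10 (edgeR adjusted p = 0.0236) on the log2 scale. Beyond GRINA, 45 genes reach to the end of the chromosome, and 10 of them (22.2%) and 17 (37.8%) were called lower.

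Along chromosome 8 in bins of 10 Mb, the last bin, which starts 12.26 Mb after MYC, held 90 tested genes, of which 30 (33.3%) were called lower in each line, and 1 and 0 were called higher. Such a share was not particular to that end, since the bin from −97.7 to −87.7 Mb had 39.1% of its 46 genes called lower in NCI-H1581R and 37.0% in NCI-H1703R. On the other chromosomes 7.32% and 7.66% of 16618 genes were called lower. Genes of the last bin are rich in G and C, with a median of 63.6%, against 48.7% over all tested genes, and distal members had a median of 61.7%. With offsets for GC content and length 25 and 24 genes of that bin were called lower, and 7 and 5 of the 15 distal members. The counts over all 35 members were then 15 and 12, and those over all 18203 genes 1745 and 1419. Under these offsets the called members were thus distal in 7 of 15 and 5 of 12 cases, beside 15 of 35 among the members tested. With the replicate block 36 and 51 genes of the bin were called lower, and 11 and 10 distal members, where 8.88% and 16.7% of all genes were.

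**Figure D4:**
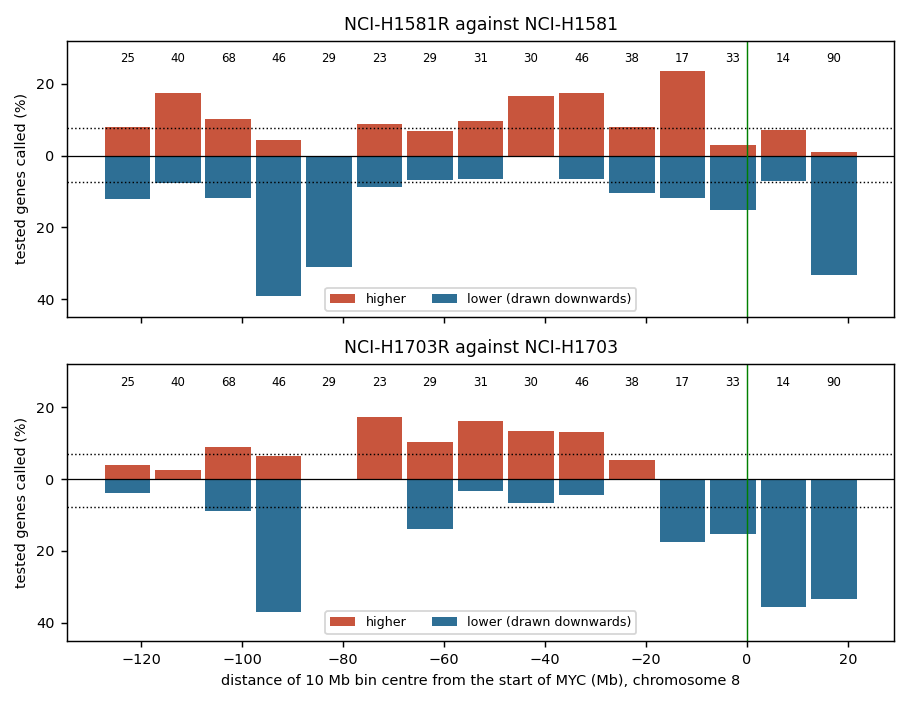
Percent of tested genes called higher (drawn upwards) and lower (drawn downwards) at an edgeR adjusted p under 0.1 in bins of 10 Mb along chromosome 8, by the distance of the bin centre from the start of MYC (green line), with the number of genes per bin above and the shares over all genes as dotted lines. The last bin has 33.3% called lower in both panels, and a bin on the opposite arm has 39.1% and 37.0%.

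The levels of the members also differed between the lines before selection. In NCI-H1703 against NCI-H1581, 18 members were called lower and 10 higher (30.4% and 32.5% of all genes), 80.0% of members in either direction, against 62.9% of all genes. Between the resistant variants 10 members were lower and 11 higher in NCI-H1703R (26.7% and 25.9% of all genes), 60.0%, against 52.5% of all genes. The median log2 fold change of the members was −0.38 before and 0.21 after selection. The first was −0.63 with offsets for GC content and length, and the second was 0.0218 without NCI-H1581R replicate 1, 0.091 without NCI-H1703R replicate 1 and 0.0685 without NCI-H1703R replicate 2. Among the 28 members of higher mean abundance the largest gaps were those of LYNX1, with a log2 fold change of −5.53 ± 0.25 between the parental lines (edgeR adjusted p = 1.71e-06), TRIB1, with −4.18 ± 0.13 (edgeR adjusted p = 3.24e-07), and ST3GAL1, with 5.55 ± 0.35 (edgeR adjusted p = 1.07e-05). ZNF572 was at least 46.5-fold lower in NCI-H1703 than in NCI-H1581 and at least 50.8-fold lower in NCI-H1703R than in NCI-H1581R, with 3 counts over the group as the floor. The parental lines differed in MYC by 0.06 ± 0.09 on the log2 scale (edgeR adjusted p = 0.596), a difference that turned to −0.07 with offsets for GC content and length.

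Levels were also divided by the length in kilobases of all annotated exons of a gene merged, which can exceed the transcript in use. This length was 6.109 kb for MYC and 7.645 kb for PUF60, and the order of members below holds for it only. GRINA then stood highest in all 4 variants, at 181, 91.3, 145 and 138 CPM per kb in NCI-H1581, NCI-H1581R, NCI-H1703 and NCI-H1703R. PLEC followed at 55.5, 34.5, 56.7 and 39.0 CPM per kb. MYC held 31.0, 22.9, 32.4 and 26.4 CPM per kb, close to WASHC5 and PUF60. TRIB1 held 34.3 CPM per kb in NCI-H1581, above MYC, and 1.89 in NCI-H1703.

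Genes that act with MYC, or that MYC is known to control, are read against the 15.1% and 14.7% of all genes called in either direction in NCI-H1581R and NCI-H1703R. Among 13 genes of the MYC family and its partners, 0 were called lower and 2 higher in NCI-H1581R (median −0.04), and 1 lower and 0 higher in NCI-H1703R (median −0.12), or 2 lower and 2 higher there with the replicate block. MXI1, an antagonist of MYC, rose in NCI-H1581R by 1.52 ± 0.45 on the log2 scale (edgeR adjusted p = 0.0933), as did ZBTB17, a partner in repression, by 0.84 ± 0.23 (edgeR adjusted p = 0.0759). MYCL, a paralog of MYC, fell in NCI-H1703R by 1.87 ± 0.38 (edgeR adjusted p = 0.0381). Of 6 cofactors and turnover factors 1 was called in each line, and with the replicate block 1 lower and 2 higher in NCI-H1703R. With that block 16.7% of all genes were called lower and 18.2% higher in NCI-H1703R, where 14.7% in either direction were called without it. HUWE1, a ubiquitin ligase acting on MYC, rose in both lines, by 0.64 ± 0.19 (edgeR adjusted p = 0.0866) and 0.73 ± 0.09 (edgeR adjusted p = 0.0108).

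Of 26 genes known to be induced by MYC, 1 was called lower and 0 higher in NCI-H1581R (median −0.09), and 4 lower and 2 higher in NCI-H1703R (median −0.16). With the replicate block 13 of the 26 were called lower and 3 higher in NCI-H1703R, where 16.7% and 18.2% of all genes were. TFRC, the transferrin receptor, fell in the first line by 0.62 ± 0.19 (edgeR adjusted p = 0.0985) and rose in the second by 0.47 ± 0.11 (edgeR adjusted p = 0.0605). ODC1, the first enzyme of polyamine synthesis, FBL, a nucleolar methyltransferase, and TERT, the telomerase subunit, fell in NCI-H1703R, by 0.57, 0.46 and 2.46 on the log2 scale.

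Of 5 genes known to be repressed by MYC, 1 was called lower and 2 higher in NCI-H1581R (median 0.87), and 3 lower and 0 higher in NCI-H1703R (median −0.57). With the replicate block 3 were called higher in NCI-H1581R, where 9.21% of all genes were. CDKN1A, the p21 inhibitor of the cell cycle, fell in both lines, by 1.46 ± 0.28 (edgeR adjusted p = 0.0227) and 0.98 ± 0.15 (edgeR adjusted p = 0.0191). CDKN2B and GADD45A rose in NCI-H1581R, by 0.87 and 2.21, and fell in NCI-H1703R by 0.80 and 0.57. The rise of GADD45A was between low levels, 0.772 and 0.449 CPM in NCI-H1581 and 2.60 and 2.92 CPM in NCI-H1581R. In NCI-H1703 it stood at 58.0 and 57.4 CPM and in NCI-H1703R at 32.8 and 43.2 CPM.

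**Figure D5:**
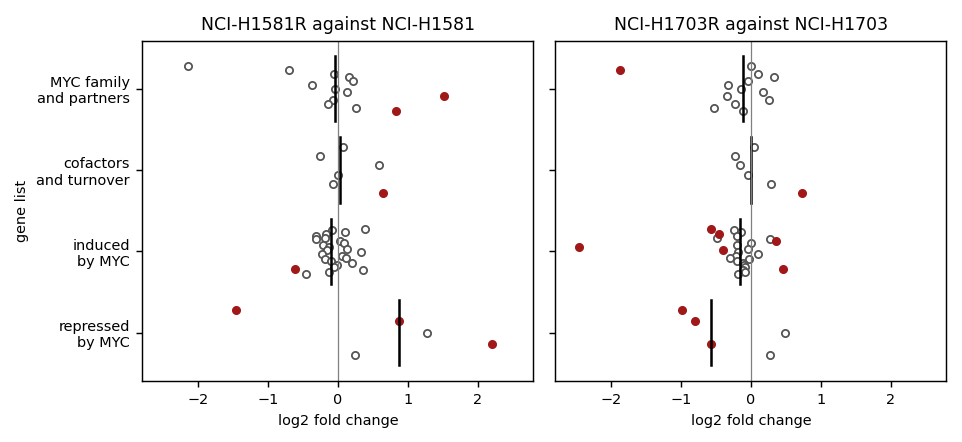
Log2 fold change (x axis) of each tested gene in 4 lists of genes that act with MYC or that MYC is known to induce or repress (rows), for NCI-H1581R against NCI-H1581 (left) and NCI-H1703R against NCI-H1703 (right), with filled points for genes called at an edgeR adjusted p under 0.1 and black bars for the list medians. The medians of the 26 induced genes are −0.09 and −0.16, and those of the 5 repressed genes are 0.87 and −0.57.

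There were 4 members below the minimum of 10 counts, which were not tested. KCNQ3, a potassium channel gene, had 2 counts in all, SLA, an adaptor of immune cells, had 1, LY6K had 8 and TMEM71 had 0. Of the tested members TG, KCNK9 (16 counts), GSDMC (23 counts) and POU5F1B (50 counts) were close to the floor, and their fold changes between variants of 1 line were not called. POU5F1B is a near copy of POU5F1, so its reads are uncertain.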

How the data were processed

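RNA-seq was done on 8 libraries (2 replicates of 4 variants), grouped by their labels. Per the paper's methods and the labels, the authors trimmed reads with cutadapt, quantified them with Salmon (GRCh38) and used tximport for gene totals. The deposited values are therefore estimated counts, rounded to whole numbers and not normalised. Versions, annotation, strandedness and tximport scaling are not given in the sources used here. Gene names, positions and GC contents came from GENCODE v44.

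Log2 fold changes were computed with edgeR 4.0.16 (TMM, quasi-likelihood test, two-sided) in R 4.3.3 on the 4 libraries of each comparison, or on all 8 for the interaction, for genes with at least 10 counts over the 8 libraries. Calls are at a Benjamini-Hochberg adjusted p under 0.1 over all genes tested. The SE is the log2 fold change divided by the square root of F. The models were tested on simulated data.

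The labels' growth protocol states that the procedure was repeated for the second replicate. Same-numbered libraries were taken to share a round, which the sources used here do not state outright. Their replicate differences correlated at 0.150 (NCI-H1581 with NCI-H1581R) and 0.230 (NCI-H1703 with NCI-H1703R) over 11174 genes, and between −0.338 and −0.0490 across lines. Replicates differed by more than sampling noise (chi-square per degree of freedom 23.3 to 96.8).

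Alternatives were DESeq2 1.42.0, RLE, other count filters, the replicate block, a single fit, a threshold of 0.05 and leaving out each library. Legacy quasi-dispersions, offsets for GC content and length (splines with 5 degrees of freedom) and the block within each line were added after seeing the data. The members and gene lists were chosen with earlier results of these data known. Text values are given for MYC, PTK2, MAFA and every member called within a line, at most 4 called genes per list and at most 3 called neighbours per segment.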

Additional observations from a re-analysis of the deposited data

Results flagged for a closer look

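The change with resistance differed between the 2 lines for 9 members by a test of the difference itself, the interaction term of a fit of all 8 libraries (change in NCI-H1703R minus change in NCI-H1581R, edgeR quasi-likelihood test with Benjamini-Hochberg adjustment). The difference was 4.05 ± 0.42 on the log2 scale for MAFA, 1.95 ± 0.37 for LY6E and 1.31 ± 0.28 for TRIB1. For GRINA it was 0.917 ± 0.19, for EFR3A 0.962 ± 0.17 and for WASHC5 0.861 ± 0.17. It was −2.97 ± 0.52 for KHDRBS3, −2.42 ± 0.74 for MTSS1 and −1.34 ± 0.23 for NDRG1. For MAFA, EFR3A and WASHC5 both NCI-H1581R libraries lay below their parental libraries and both NCI-H1703R libraries above theirs, and for KHDRBS3, NDRG1 and MTSS1 the order was the opposite in both lines. The cause of these differences was not tested.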

How the results depend on the processing

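Counts below are members called lower or higher, and medians are of the members' log2 fold changes. Where the share of all genes called in a setting is not given, a count does not tell a change in the members from one over all genes. In NCI-H1581R against NCI-H1581, 7 were lower and 0 higher at a threshold of 0.05, 0 were higher with legacy quasi-dispersions, and 2 were higher with DESeq2, with at least 10 counts in every library, with the replicate block, in a single fit and with GC and length offsets plus the block. The median was −0.621 with DESeq2, −0.571 with RLE, −0.509 without a filter, −0.486 with at least 10 counts in every library, −0.590 with GC and length offsets and −0.601 with the block added. In NCI-H1703R against NCI-H1703, 19 were lower and 3 higher with the replicate block, and 20 and 3 with GC and length offsets plus the block. There were 5 lower in a single fit, 5 lower at 0.05, and 1 higher with at least 10 counts in every library. Over all 18203 genes, 3009 were lower and 3553 higher in NCI-H1703R with the offsets plus the block, and 1910 were higher in NCI-H1581R.

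Between the parental lines the median was −0.629 with GC and length offsets and −0.630 with the block added. Between the resistant variants 6 were higher with the replicate block and 7 at 0.05, and the median was 0.178 in a single fit, 0.256 with GC and length offsets and 0.253 with the block added. For the interaction of line and resistance, 5 were lower with DESeq2, and the median was 0.237 with GC and length offsets and 0.249 with the block added. With GC and length offsets, without and with the block, signs turned between the parental lines for MYC (−0.0667 and −0.0654), AGO2 (−0.0149 and −0.0153), PUF60 (0.0597 and 0.0604) and GRINA (0.318 in both), and for PTK2 in the difference between the lines (0.0893 and 0.0879).

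The replicate block also ended the calls of RNF139, WASHC5, PHF20L1, AGO2, GRINA and TG between the resistant variants, of TG between the parental lines and of MTSS1 in the interaction, and it ended no other call of a member in the 5 comparisons.

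With each library left out, NCI-H1581R had 3 to 19 members lower, 0 to 2 higher and a median of −0.587 to −0.400. NCI-H1703R had 1 to 9 lower, 0 higher and −0.392 to −0.243. NCI-H1703 against NCI-H1581 had 15 to 17 lower, 7 to 9 higher and −0.407 to −0.353. NCI-H1703R against NCI-H1581R had 7 to 13 lower, 4 to 11 higher (4 and 5 without either NCI-H1703R library) and 0.0218 to 0.191. The difference between the lines had 2 to 4 lower, 5 to 8 higher and 0.0233 to 0.190. Named members turned sign in 0 of these fits. With 2 libraries per variant, depth limited TG, KCNK9, GSDMC and POU5F1B, and the cause of the changes in counts was not tested.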

Other observations

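KRT5, a keratin of squamous cells, had 1, 0, 1 and 0 counts in the first replicates of NCI-H1581, NCI-H1581R, NCI-H1703 and NCI-H1703R and 47, 41, 35 and 38 counts in their second replicates, so it followed the replicate number and not the line or the variant.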
